A study of Saccharomyces cerevisiae with 8 samples.

Results

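The genes described here encode enzymes of glycolysis in budding yeast, from phosphoglucose isomerase to pyruvate kinase. They were taken by name and number 10, namely PGI1, PFK1, PFK2, FBA1, TPI1, PGK1, GPM1, ENO1, ENO2 and CDC19, of 6002 protein-coding genes on the nuclear chromosomes. A start peak of a gene is a CAGE-seq peak on the strand of the gene whose 5′ end lies between 300 bp upstream and 50 bp downstream of the start codon. Of the members, 8 had a start peak in all 8 libraries, as did 1190 genes in total. PFK2 had one in 6 libraries and PFK1 in 1 library.

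Glycolysis splits glucose into pyruvate. Its upper part spends ATP to prepare a hexose bisphosphate, which aldolase cleaves into triose phosphates, and its lower part regains ATP from them. In growing budding yeast the pathway is the main route of fermentation, and several of its genes are known for very high expression. The transcription factors Rap1 and Gcr1 are known activators of these genes, with Gcr1 acting at short CTTCC elements that often lie close to a Rap1 site.

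All strains derive from BY4741 (his3Δ1 leu2Δ0 met15Δ0 ura3Δ0) and all carry a large synthetic locus, either HPRT1, the human gene with its surroundings, or HPRT1R, the same sequence reversed but not complemented. The locus was held as an episome in a vector with a LEU2 marker, in cultures grown in SC-Leu, or was integrated at YKL162C-A on chromosome XI, in cultures grown in YPD. The 4 groups are HPRT1 episome, HPRT1R episome, HPRT1 integrated and HPRT1R integrated, with 2 libraries each from separate colonies of 1 strain. The context of the locus and the medium cannot be told apart, and no strain without a synthetic locus was analysed here. Cultures were in growth at 30 °C for 6 h from an OD of 0.1 to about 0.6.

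The measure used is the height of the tallest start peak of a gene, as reads piled up at its summit per 1000000 aligned reads (RPM). CAGE-seq reads begin at the capped 5′ end of an RNA, so that heights of different genes need no division by gene length. How fully the 5′ ends of each gene were captured was not measured. Libraries held 6.48 to 8.85 M aligned reads (M, 1000000). The lowest height that was called lay between 8.48 and 9.65 RPM on the forward strand and between 13.7 and 14.6 RPM on the reverse strand, and genes below it have no value. A height is a share of a library, and in bulk cultures fewer transcribing cells and less RNA per cell cannot be told apart. The p-values below measure the spread between colonies, and reads carried no molecular identifiers.

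The genes of the upper pathway covered the widest range of heights. PGI1 (chrII:612236-613900, reverse strand), which converts glucose 6-phosphate to fructose 6-phosphate, had heights of 450.3, 599, 385 and 294 RPM in the episome libraries, given here and below as HPRT1 replicates 1 and 2 and then HPRT1R replicates 1 and 2. In the integrated libraries they were 504, 585, 353 and 619.7 RPM. The contexts overlapped, and with a coefficient of variation of 25.9% over 8 libraries PGI1 varied most of the 8 genes with a peak in every library.

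PFK1 (chrVII:970771-973734, reverse strand) and PFK2 (chrXIII:671887-674766, reverse strand) encode the alpha and beta subunits of phosphofructokinase, which commits the sugar to glycolysis. Both had the lowest starts. Their coding sequences, of 2964 and 2880 bp, were also the longest, beside 744 (GPM1) to 1665 bp (PGI1) for the other members. Whether length bears on the heights was not tested. The single start peak of PFK1, in HPRT1 episome replicate 2, held 114 reads or 15.7 RPM, close to the lowest height called. PFK2 had start peaks of 16.3 RPM in HPRT1 episome replicate 1 and 47.4 RPM in HPRT1R episome replicate 2, and none in the other episome libraries. In the integrated libraries its heights were 109.7, 30.9, 283 and 287 RPM. All 4 integrated libraries thus had a PFK2 peak, but the lower of them in HPRT1 integrated lay below the higher episome value. No sense peak lay between 300 and 1000 bp upstream of either gene.

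FBA1 (chrXI:326408-327487, reverse strand) encodes aldolase, and its start was among the tallest of the genome. Its heights were 6938, 10694, 7883 and 10728 RPM in the episome libraries and 10905, 11859, 11817 and 9913 RPM in the integrated ones, with overlap. TPI1 (chrIV:555726-556472, reverse strand) encodes triose phosphate isomerase, which interconverts the products of aldolase. Its heights were 2100.4, 1843, 1758 and 2022 RPM as episome and 1891, 2586, 2209 and 2092 RPM as integrated, again with overlap.

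**Figure D1:**
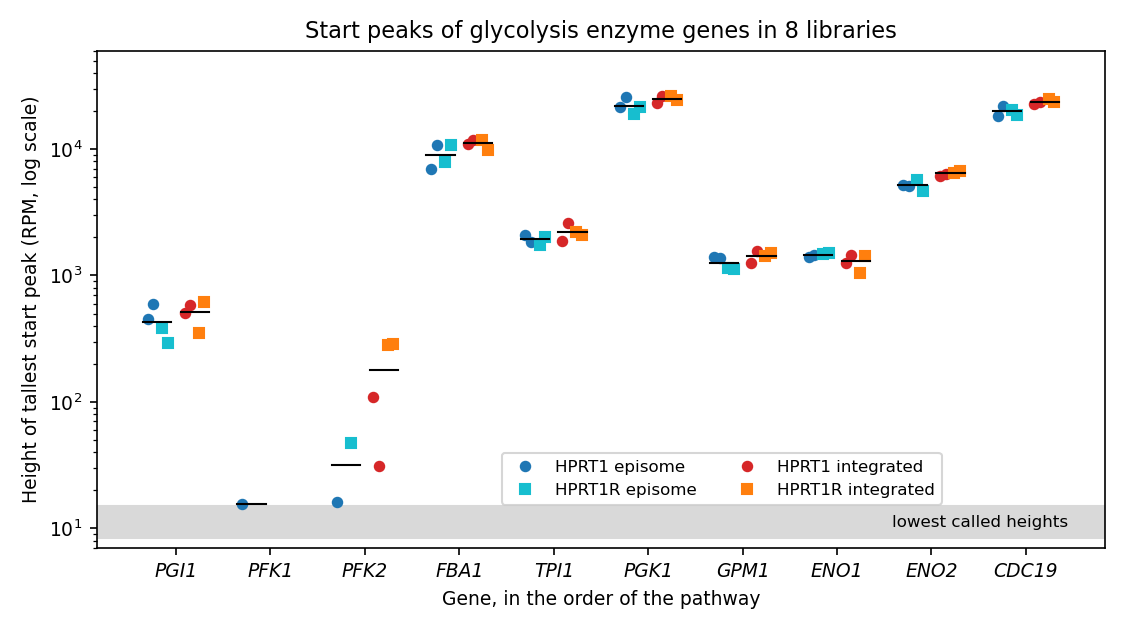
Height of the tallest start peak of each gene (RPM, log axis) in each of 8 libraries, with genes in pathway order. Points are libraries, coloured by group, and black lines are means of the libraries with a peak in each context. PGK1 and CDC19 sit highest, between 18249.9 and 26470.3 RPM, PFK2 spreads from 16.3 to 287 RPM, and PFK1 has 1 point at the grey band of the lowest heights called.

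The lower pathway held the tallest starts. PGK1 (chrIII:137746-138996, forward strand), whose product phosphoglycerate kinase makes the first ATP of the lower part, had heights of 21438, 26068, 18929 and 21627 RPM as episome and 23358, 26470.3, 26153 and 24567 RPM as integrated. CDC19 (chrI:71786-73288, forward strand), which encodes the main pyruvate kinase, had heights of 18249.9, 21942, 20497.5 and 18766 RPM as episome and 22552, 23596, 25075 and 23518 RPM as integrated. The PGK1 contexts overlapped, whereas all 4 integrated CDC19 values lay above all 4 episome values.

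GPM1 (chrXI:163642-164385, reverse strand) encodes phosphoglycerate mutase. Its heights were 1402, 1367, 1146 and 1129.5 RPM as episome and 1255, 1558, 1422 and 1499.6 RPM as integrated, and overlapped. It is also the member nearest to the integrated locus, at 11.3 to 17.7 kb from the insertion point, which the peak lists place between bases 145916 and 152298 of chromosome XI. FBA1 lies on the same chromosome at least 174 kb away.

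Enolase, which makes phosphoenolpyruvate, is encoded by the paralogues ENO1 (chrVII:1000927-1002240) and ENO2 (chrVIII:451327-452640), both on the forward strand. ENO1 heights were 1408, 1444, 1491 and 1509.98 RPM as episome and 1265, 1459.6, 1054 and 1439 RPM as integrated. ENO2 heights were 5237, 5086, 5644 and 4648 RPM as episome and 6169.6, 6366, 6494 and 6734 RPM as integrated. ENO2 did not overlap between contexts, while ENO1 did and was the only member of the 8 with a lower mean in the integrated libraries (1304 ± 189 against 1463 ± 46.0 RPM, SD, n = 4 each).

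Ordered by mean height over 8 libraries (± SD), the starts were PGK1 (23576 ± 2731 RPM), CDC19 (21775 ± 2420 RPM), FBA1 (10092 ± 1788 RPM), ENO2 (5797 ± 755 RPM), TPI1 (2063 ± 259 RPM), ENO1 (1384 ± 153 RPM), GPM1 (1347 ± 157 RPM) and PGI1 (474 ± 123 RPM). PGK1 exceeded CDC19 in 7 of 8 libraries, by 1.09-fold ± 0.0898 on average. ENO1 exceeded GPM1 in 5 of 8 libraries, by 1.04-fold ± 0.195, so that these neighbours were not separated beyond their spread. Each of the other 5 neighbouring pairs had the same order in 8 of 8 libraries, with mean ratios from 1.51-fold (TPI1 over ENO1) to 2.98-fold (GPM1 over PGI1).

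**Figure D2:**
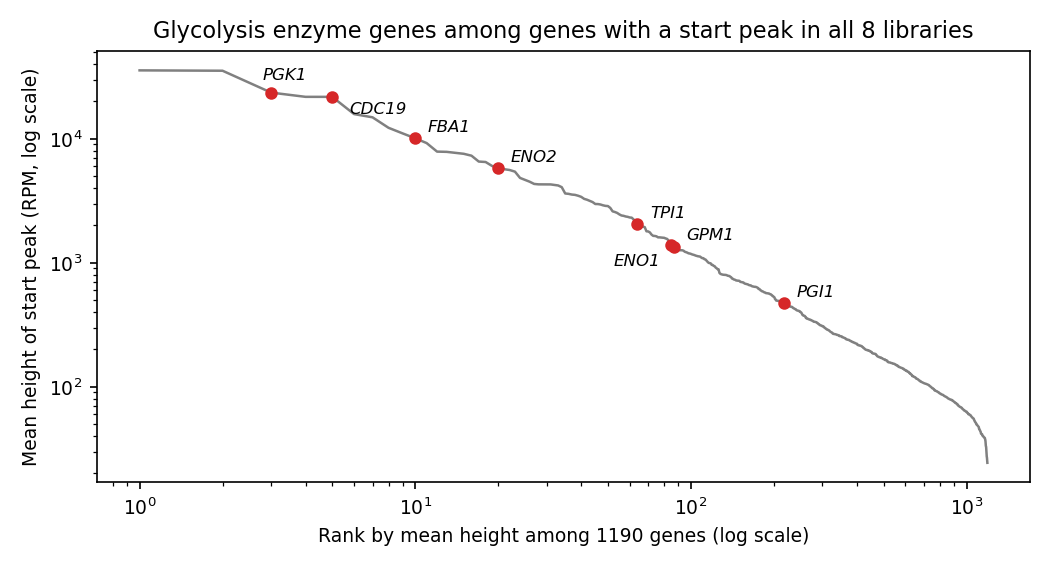
Mean height of the start peak (RPM, log axis) against rank (log axis) for the 1190 genes with a start peak in all 8 libraries, as a grey line, with glycolysis enzyme genes as red points. PGK1 has rank 3, CDC19 rank 5, FBA1 rank 10 and ENO2 rank 20, while PGI1 has rank 218.

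Among the 1190 genes PGK1 had rank 3, CDC19 rank 5, FBA1 rank 10, ENO2 rank 20, TPI1 rank 64, ENO1 rank 85, GPM1 rank 87 and PGI1 rank 218. The other genes among the 15 tallest were RPS26A, PDC1, RPS15, TDH3, FCY1, TMA19, TEF2, HTB1, RPS31, RPP1A, RPL9A and AHP1. TDH3, the main glyceraldehyde-3-phosphate dehydrogenase, and PDC1, the main pyruvate decarboxylase, act next to the members in the pathway, and had mean heights of 15814 and 35374 RPM.

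The heights of the members summed to 5.72% to 7.49% of the aligned reads of a library. The sum was 6.12% ± 0.547 in the episome libraries and 7.20% ± 0.327 in the integrated ones (SD, n = 4 each), and the contexts overlapped. PGK1 and CDC19 together made up 68.1% ± 1.04 of it over 8 libraries. The heights were steady between libraries, with a median coefficient of variation of 12.1% over the 8 members, beside 16.9% over the 100 tallest starts and 34.8% over all 1190 genes.

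The first comparison asked whether native starts differed between strains with the locus as an episome and strains with it integrated. On the log2 scale, 7 of the 8 members had a higher mean in the integrated libraries, by 0.18 (TPI1) to 0.32 (ENO2), and ENO1 differed by -0.18. The median difference was 0.23 over the 8 members and 0.13 over all 1190 genes, of which 59.7% had a positive difference.

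None of these differences passed the test. By limma with Benjamini-Hochberg adjustment over 1190 genes, 0 of 8 members rose and 0 fell in the integrated libraries, beside 1.68% and 1.93% of all genes. Without adjustment, 3 of the 8 had a p under 0.05, as had 208 of 1190 genes. For ENO2 the difference was 0.32 ± 0.12 (SE), or 1.25-fold with a 95% confidence interval from 1.05 to 1.49 and an adjusted p of 0.149. For CDC19 it was 0.26 ± 0.11, or 1.19-fold (1.02 to 1.40, adjusted p = 0.207), and for FBA1 0.32 ± 0.15, or 1.25-fold (1.01 to 1.54, adjusted p = 0.269). PGK1 differed by 1.15-fold (0.973 to 1.35), TPI1 by 1.13-fold (0.915 to 1.40), GPM1 by 1.14-fold (0.910 to 1.42), PGI1 by 1.21-fold (0.858 to 1.69) and ENO1 by 0.884-fold (0.704 to 1.11).

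Several of these sizes depended on 1 library, with no change of sign. On the log2 scale the PGI1 difference of 0.27 was 0.066 without HPRT1R integrated replicate 2, and the TPI1 difference of 0.18 was 0.091 without HPRT1 integrated replicate 2. ENO1 moved from -0.18 to -0.066 without HPRT1R integrated replicate 1, and FBA1 from 0.32 to 0.18 without HPRT1 episome replicate 1. GPM1 moved from 0.19 to 0.28 without HPRT1 integrated replicate 1. TPI1 also reached 0.27 without HPRT1 integrated replicate 1.

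Heights of 2 of the 8 members, ENO2 and CDC19, lay higher in every integrated library than in any episome library. The same held for 7.31% of the 1190 genes. Scaling by median of ratios, which sets the median gene equal between libraries, moved the median difference of all genes from 0.13 to 0.01. Under that scaling the ENO2 difference was 0.21, the CDC19 difference 0.14 and the ENO1 difference -0.29, those of PGK1, TPI1 and GPM1 were 0.085, 0.065 and 0.073, and 0 of the 8 members were free of overlap in this direction. Calls over all genes were split into 20 higher and 23 lower in RPM, and into 12 higher and 31 lower by median of ratios.

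**Figure D3:**
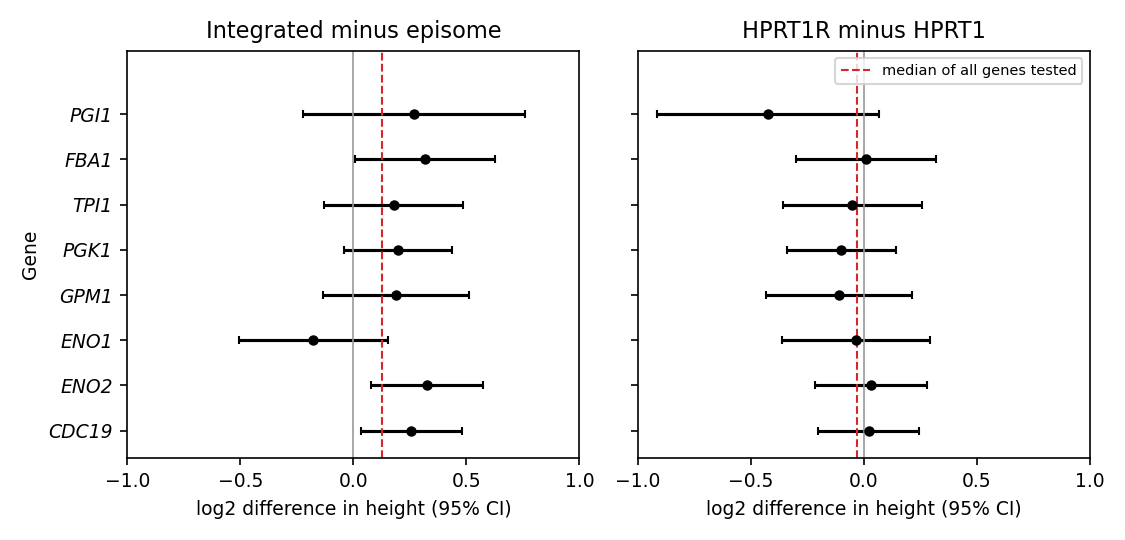
Log2 difference in start peak height of 8 glycolysis enzyme genes between integrated and episome libraries (left) and between HPRT1R and HPRT1 libraries (right), 4 against 4, with limma 95% confidence intervals. The dashed red line is the median of all 1190 genes tested. ENO2, CDC19 and FBA1 have intervals just above 0 on the left, before adjustment, and ENO1 lies to the left of the line.

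PFK2 could be tested only when genes with a start peak in at least 4 of 8 libraries were admitted and libraries without a peak were given the lowest height called on their strand. It entered that test through all 4 integrated and 2 of 4 episome libraries. The filter thus admitted PFK2 through the context in which it was higher, and the values of 2 episome libraries were filled in, so that the result gives no support beyond the heights above. The fitted difference was 2.69 ± 0.63 (SE) on the log2 scale (limma, adjusted p = 0.0362 over 2458 genes), and 0.651% of genes were called in this direction. The size depends on the height given to the libraries without a peak, and at 1 read it was 6.11 with an adjusted p of 0.362. The call was also lost without HPRT1 integrated replicate 1 (adjusted p = 0.139), without HPRT1R episome replicate 1 (0.0911) or replicate 2 (0.0556), and without HPRT1R integrated replicate 1 (0.216) or replicate 2 (0.182). Between loci PFK2 had an adjusted p of 0.939.

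The second comparison was between the HPRT1R and the HPRT1 locus. By limma, 0 of 8 members were called, as were 0.0% of all genes, with 0 of 8 members and 55 of 1190 genes at an unadjusted p under 0.05. Member differences lay between -0.42 for PGI1 (95% confidence interval -0.91 to 0.07, adjusted p = 0.905) and 0.03 for ENO2 (-0.21 to 0.28, adjusted p = 0.976). The difference between contexts was then compared between loci. No interaction was called for the 8 members or for any gene (0.0% of 1190), with 0 members and 104 genes at an unadjusted p under 0.05, and member values lay between -0.22 (ENO1) and 0.41 (PGI1).

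The ratio of the enolase starts was compared within each library, where it does not depend on scaling. ENO2 and ENO1 encode nearly the same protein, and ENO2 is known as the glucose-induced gene of the pair. ENO2 stood above ENO1 by 3.72-fold, 3.52-fold, 3.79-fold and 3.08-fold in the episome libraries and by 4.88-fold, 4.36-fold, 6.16-fold and 4.68-fold in the integrated ones. All integrated ratios exceeded all episome ratios, with means of 5.02 ± 0.791 and 3.53 ± 0.319 (SD, n = 4 each).

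The mean log2 ratio was 0.50 higher in the integrated libraries, or 1.42-fold. An exact two-sided permutation test gave p = 0.0286, the smallest that 70 splits allow, and 0.0571 after adjustment over the 2 enolase tests. Given the p between loci below, no split could have given a smaller adjusted value. The adjusted test thus could not pass 0.05 and decides nothing about the difference. Without HPRT1R episome replicate 2 the exact p was 0.0571, and the ratio was 1.35-fold. Between loci the ratio differed by 1.05-fold (exact permutation p = 0.80, adjusted p = 0.80). The coding sequences of ENO1 and ENO2 share 94.8% of 1314 bases, including all of the first 40. The 40 bases upstream of the start codons differ at 21 positions, and reads of 75 bases from the starts described below cross that stretch.

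**Figure D4:**
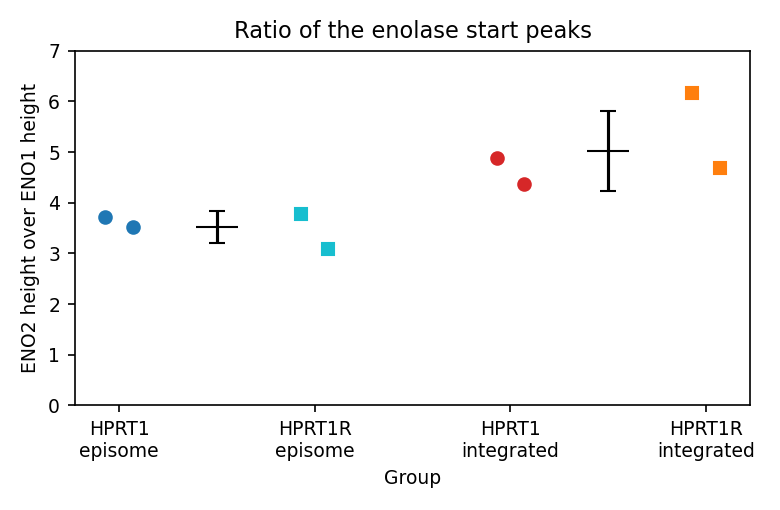
Ratio of the ENO2 to the ENO1 start peak height in each library, by group. Points are libraries, and black bars are the mean and SD of the 4 libraries of each context. The 4 integrated libraries lie between 4.36 and 6.16, above the episome libraries between 3.08 and 3.79.

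Peak edges describe where transcription starts. Reads were extended to 200 bp by the peak caller, so the width minus 200 bp is the span from the first to the last start position that the peak holds. For a tall start the background against which macs2 tests is set by its own reads over 10 kb, at 1 part in 50. The edges of its peak are thus the positions at which about 2% of its reads had begun and about 2% were still to begin. At PGI1, with a lower fold, the share was 2.99%. Distances are in bp upstream of the start codon.

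The enolase starts were the sharpest. ENO2 had a median span of 8 bp (3 to 19), from a first edge between 34 and 49 to a last edge between 27 and 31. ENO1 had a median span of 4.5 bp, with a last edge at 37 or 38 in 7 of 8 libraries. The spans of ENO1 were longer in HPRT1R episome replicate 1, with a first edge at 78, and in HPRT1R integrated replicate 1, from 78 to beyond the start codon (137 bp). The longest stretch that the leaders share between 60 and 20 bp upstream has 11 bases, shown in capitals with its neighbours (chrVII:1000877-1000904 and chrVIII:451284-451311, forward strand, R64 assembly from RefSeq). It holds the last edge in 7 of 8 libraries for ENO1, at 37 or 38, and in 8 of 8 for ENO2, at 30 or 31 in 5 libraries and at 27 in 3. ENO1 in HPRT1R integrated replicate 1 is the exception.
ENO1: ttcataaaaaACCAAGCAACTgcttatc
ENO2: ctttcataacACCAAGCAACTaatacta

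The last edge was the more constant for several members. PGI1 had its last edge at 10 and FBA1 at 15 in all 8 libraries, whereas their first edges took 3 positions (43, 51 and 74) and 5 positions (27 to 38). A last edge common to all libraries was found for 49 of 1190 genes, and a common first edge for 14. The median range between libraries over all 1190 genes was nevertheless wider for last edges (45 bp) than for first edges (25 bp). Among the 100 tallest starts it was 10.5 and 11 bp, and each edge was common to all libraries for 6 genes. Over the 8 members it was 7.5 and 18.5 bp. For TPI1 the first edge was the constant one, at 43 in 7 of 8 libraries. CDC19 spanned a median of 30 bp, with first edges between 36 and 58 and a last edge at 10 to 19. GPM1 began at 47, 45 or 32 and had a median span of 36.5 bp. Its peak ran on into the coding sequence in HPRT1 integrated replicate 2, with a span of 267 bp, and in HPRT1R integrated replicate 1 (62 bp). The TPI1 peak did so in HPRT1R episome replicate 1, with a span of 48 bp. PFK2 began at 56 in 3 of its 6 libraries and at 61 to 69 in the others.

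**Figure D5:**
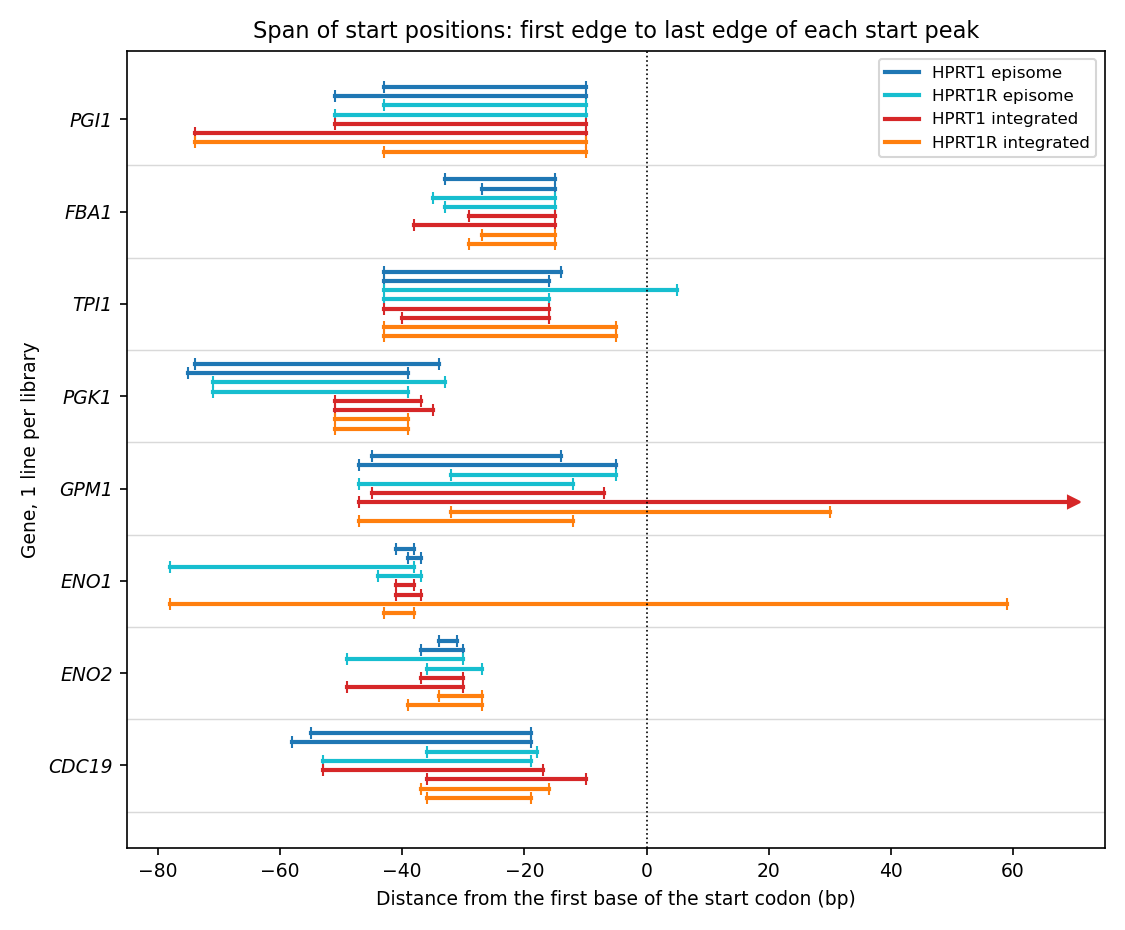
Span of start positions in each library for 8 glycolysis enzyme genes, from the first to the last edge of the start peak, in bp from the start codon (dotted line). Lines are libraries, coloured by group, and the arrow marks a GPM1 span that runs 220 bp past the first base of the start codon. Last edges of PGI1 and FBA1 align in all libraries, and first edges of PGK1 separate the contexts.

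PGK1 was the 1 member whose first edge separated the contexts. The edge lay at 74, 75, 71 and 71 in the episome libraries and at 51 in all 4 integrated libraries, with last edges between 33 and 39 in both. The spans were 32 to 40 bp as episome and 12 to 16 bp as integrated. The same positions were found with the other reference, which holds the locus within chromosome XI. First edges lay farther upstream in every episome library than in any integrated one for 0.756% of the 1190 genes (9 genes). This pattern was chosen after the positions had been seen and was given no test. Since the edge marks about 2% of the reads, about 2% of PGK1 reads had begun by 71 to 75 bp upstream in the episome libraries, and less than this share upstream of 51 in the integrated ones. The leader from 78 to 49 bp upstream (chrIII:137668-137697, forward strand) is shown with each first edge in capitals, of which the last, at 51, is that of the integrated libraries.
PGK1: tctTAgaTgctttctttttctctttttTac

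Yeast starts commonly lie at a purine that follows a pyrimidine. Here the pair was counted with the pyrimidine at the 5′ end of the peak. Where it was found, the peak thus began on the base before such a purine, and the reason was not tested. Of the 71 tallest start peaks of the members over all libraries, 53 (74.6%) had a pyrimidine at their 5′ end with a purine next to it, and 72.9% of 9456 start peaks of the other genes did. Counted once per distinct position, the shares were 62.2% of 37 for the members and 66.7% of 5686 for the other genes, so that the order of both turned and no difference is drawn from them. Where first edges were equally frequent, the one nearest the start codon was taken. These were 43 for PGI1 (tied with 51), 34 for ENO2 (tied with 37 and 49) and 27 for FBA1 (tied with 29 and 33). The pair lay at the most frequent first edges of PGI1, PFK2, TPI1, PGK1, GPM1, ENO2 and CDC19. It did not lie at those of FBA1 (AC), ENO1 (AA) and PFK1 (GA, 1 library). At the tied FBA1 edges of 29 and 33 it did lie, as TA. Shown as examples are TPI1 (7 libraries, chrIV:556503-556527), GPM1 (4 libraries, chrXI:164420-164444), CDC19 (3 libraries, chrI:71738-71762) and PFK2 (3 libraries, chrXIII:674810-674834). The base at the edge and the next base are in capitals. Of these examples, CDC19 lies on the forward strand and the others on the reverse.
TPI1: gtattcttttctTGcttaaatctat
GPM1: tgtaatttttttTGtaattattctt
CDC19: tgtttctatttaCAagacaccaatc
PFK2: acctcatttgaaCAatagaactaga

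The stretch from 800 to 1 bp upstream of each start codon was searched on both strands for motifs of known regulators. The Rap1 core ACCCNNACA was found upstream of 6 of the 10 members, beside 8.15% of all 6002 genes and 8.99% of the 1190 genes with a start peak in all libraries. The Gcr1 core CTTCC was found upstream of 10 of 10, but also of 82.0% of all genes, with a median of 3.5 matches a member and 2 matches a gene. TATAAA was found for 8 of 10 members (all but PGI1 and GPM1) and 72.2% of all genes. TTACCCG, bound by Reb1, was found for TPI1 alone and for 12.6% of all genes. A match is a string of letters and was not tested as a binding site.

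The stretches around the Rap1 core are shown because both activators' cores can lie side by side there, in capitals on either strand. They begin 20 bases before the core, at chrIII:137254-137318 for PGK1, chrI:71114-71178 for CDC19, chrVII:1000440-1000504 for ENO1, chrXI:164735-164799 for GPM1, chrXI:327947-328011 for FBA1 and chrXIII:675250-675314 for PFK2, each 5′ to 3′ on the strand of its gene. The Rap1 core begins 472 bp upstream of the start codon in PGK1, 652 in CDC19, 467 in ENO1, 394 in GPM1, 504 in FBA1 (on the other strand) and 528 in PFK2. In PGK1 it is followed by a pair of CTTCC cores and in CDC19 by a single one. In PFK2 a CTTCC core on the other strand begins 487 bp upstream of the start codon. It runs past the end of the stretch shown, at 484, and is not in capitals.
PGK1: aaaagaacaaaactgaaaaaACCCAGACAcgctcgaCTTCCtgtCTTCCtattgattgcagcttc
CDC19: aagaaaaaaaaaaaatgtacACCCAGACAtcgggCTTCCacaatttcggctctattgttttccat
ENO1: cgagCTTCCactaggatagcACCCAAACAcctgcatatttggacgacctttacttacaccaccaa
GPM1: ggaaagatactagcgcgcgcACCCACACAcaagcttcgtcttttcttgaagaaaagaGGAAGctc
FBA1: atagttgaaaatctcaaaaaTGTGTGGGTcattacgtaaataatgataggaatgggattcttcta
PFK2: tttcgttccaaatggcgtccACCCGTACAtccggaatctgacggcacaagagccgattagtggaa
Members with a match had ranks 3 (PGK1), 5 (CDC19), 10 (FBA1), 85 (ENO1) and 87 (GPM1), and PFK2 was not ranked. Members without a match had ranks 20 (ENO2), 64 (TPI1) and 218 (PGI1), and PFK1 was not ranked. Whether the core bears on the heights was not tested.

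Peaks within the coding sequences were few. Sense peaks inside the 8 members with constant starts numbered 4, in PGI1 and GPM1, at 4.38% to 8.31% of the height of the start. PFK1 and PFK2 together had 8 sense peaks inside their coding sequences. Those of PFK1, in 3 libraries, had heights of 22.0 to 22.4 RPM, above its only start peak at 15.7 RPM. In HPRT1R episome replicate 1, where PFK2 had no start peak, internal peaks of 42.7 and 14.9 RPM were present. No internal sense peak was called in FBA1, TPI1, PGK1, ENO1, ENO2 or CDC19, where a peak must also exceed the background set by the tall start within 5 kb.

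On the opposite strand 8 peaks were called in all members, of which 6 lay in CDC19. These were found in 6 of 8 libraries, between 1091 and 1131 bp after the first base of its start codon, in a coding sequence of 1503 bp. Their heights were 183, 18.0, 64.4 and 98.1 RPM in the integrated libraries and 47.7 and 23.3 RPM in the HPRT1R episome libraries, with no peak in HPRT1 episome. They reached 0.0762% to 0.812% of the CDC19 start in the same library.

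Other genes around the pathway were grouped by role. Of 12 other enzyme genes of glycolysis, 6 had a start peak in all libraries, and 1 of them rose and 0 fell in the integrated libraries, where 1.68% of all genes tested rose and 1.93% fell. TDH1, a minor glyceraldehyde-3-phosphate dehydrogenase, rose from 1212 ± 231 to 1995 ± 203 RPM (SD, n = 4 each), a 1.66-fold difference (limma, adjusted p = 0.0201). Their median difference was 0.32, beside 0.13 over all genes. Of 13 genes of branches from glycolysis, 10 were measured in all libraries, 2 rose and 0 fell, beside the same 1.68% and 1.93% of all genes, with a median difference of 0.03. At these list sizes the counts are descriptions and nothing is called particular to the lists. These were PDC1, from 27476 ± 5144 to 43272 ± 1952 RPM (1.59-fold, limma, adjusted p = 0.00288), and GPP1, a glycerol 3-phosphatase, from 3170.0 ± 553 to 5234 ± 626 RPM (1.66-fold, limma, adjusted p = 0.00781). Under median of ratios the adjusted p was 0.0414 for TDH1, 0.00854 for PDC1 and 0.0185 for GPP1. The TDH1 call was lost without HPRT1 episome replicate 1 (0.0604), HPRT1 integrated replicate 2 (0.0566) or HPRT1R integrated replicate 1 (0.124), and the GPP1 call without the last of these (0.0642). By limma without trend the adjusted p was 0.202 for TDH1 and GPP1 and 0.22 for PDC1. No gene of these lists was called between loci.

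Start peaks of regulators and of gluconeogenesis genes are given beside those of all genes. Of 6 regulator genes, among them GCR1 and RAP1, 0 had a start peak in all libraries and 3 had one in none. Of 5 genes of gluconeogenesis, which runs the pathway in reverse, 0 had one in all libraries and 2 had one in none. Among all 6002 protein-coding genes, 1190 had one in all libraries and 2159 in none. At these list sizes nothing is called particular to either list. In libraries without a start peak the level of a gene was below what could be called, not shown to be 0. MDH2, a malate dehydrogenase of the gluconeogenesis list, had a start peak in 7 libraries, at 20.5 to 63.5 RPM, and RAP1 in 1 library, at 23.4 RPM. MDH2 and RAP1 are given as examples chosen after their values were seen.

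The non-member genes whose log2 heights over 8 libraries were most like the centred mean of the 8 members were IPP1 (Pearson r = 0.942), MPP6 (0.940) and GRS1 (0.924). These values describe 8 libraries that share medium and scaling, and they were the highest of all other genes tested.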

How the data were processed

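Per the study's methods, capped RNA 5′ ends were sequenced by CAGE-seq from 5 µg RNA with 20 PCR cycles, and the 5′ reads were aligned to sacCer3 with the synthetic locus added, using Bowtie2 2.2.9. Peaks were called by the authors with MACS2 2.1.0 for each library and strand, with duplicates kept and replicates not pooled, in 32 lists. The score deposited by the authors follows their −log10 q. The fold deposited by the authors is the ratio of summit pileup to local background, with a ceiling near 50. Per the file values, the −log10 p and −log10 q deposited by the authors are those of a Poisson test.

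Pileup and background were recovered from fold and −log10 p. Of 45253 pileups under 2000, 100% were within 0.05 of whole numbers. Depth followed from the lowest background, with a genome size of 12000000 bp. Heights (RPM) were compared with limma 3.58.1 in R 4.3.3, on log2 values with trend, locus and context as terms, and Benjamini-Hochberg adjustment over 1190 genes with a start peak in all 8 libraries, with no pseudocount. The enolase ratio was compared by exact permutation in Python 3.11.15. The scripts were tested on simulated data. Annotation and sequence were those of R64 from RefSeq.

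All 10 members were named, with the non-members among the 15 tallest starts, genes of the lists that were called, and the 3 genes most like the members. The members, lists and tests were chosen with earlier results of these data known. The alternatives were other scalings, the deposited fold, the other reference, other windows and filters, a pseudocount of 10 RPM, limma without trend or covariate, a replicate block and leaving out each library. The values for PFK2 without single libraries, at 1 read and by median of ratios, and the PGK1 edge with the other reference, were added after the data had been seen.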

Additional observations from a re-analysis of the deposited data

How the results depend on the processing

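Of the alternatives, only the admission of genes with a start peak in at least 4 of 8 libraries changed the number of members called between contexts, from 0 to 1 (PFK2). No alternative called a member between loci. Over all genes, 43 were called between contexts, 1 with the deposited fold, 6 by limma without trend, and 20 to 42 when single libraries were left out. Between loci, 0 to 4 were called when single libraries were left out, 1 without HPRT1 episome replicate 1 and 4 without HPRT1R episome replicate 1. The replicate block left 0 members and 38 genes called between contexts. Replicate numbers did not pair the libraries, with correlations from -0.058 to 0.012. The deposited fold, which is at its ceiling for tall starts, gave log2 differences between contexts of -0.0019 for TPI1, 0.010 for ENO1 and -0.0021 for CDC19, opposite in sign to those in RPM, and an enolase ratio of 0.998 (exact permutation p = 0.943). The ENO2 difference between loci was -0.0029 with reads of the same strand and -0.014 to 0.098 when single libraries were left out, with the lowest value without HPRT1R episome replicate 1. The enolase ratio between contexts was 1.32 to 1.48 when single libraries were left out. Permuted within replicate numbers (replicate block), the ratio of 1.42 had an exact p of 0.0556, the smallest that this setting allows. Between loci it was 0.928 to 1.17 when single libraries were left out. The PFK2 difference was 2.19 to 3.21 without single libraries, and 2.58 by median of ratios (adjusted p = 0.0456). The ratio of PFK2 to PFK1 could not be computed, since PFK1 had a peak in 1 library, and the adjustment of the ratio tests then covered 2 tests. The only start peak of PFK1 and the lowest PFK2 start lay near the lowest height called. Whether greater depth would show more of them was not tested.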
